A study of Mus musculus with 12 samples.

Results

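A set of 10 receptor genes of the CD28 family and related coinhibitory pathways was followed in mouse splenic regulatory T cells (Treg cells). They were taken by symbol from the deposited count table: Cd28, Icos, Ctla4, Pdcd1, Btla, Lag3, Havcr2, Tigit, Cd160 and Cd200, which are 10 of its 25189 genes. All 10 passed the filter on low counts and were among the 13196 genes tested. RNA came from splenic CD4+ cells of female mice aged 4 weeks, sorted 2 times in a row for RFP or YFP, with 4 libraries in each of 3 groups. The WT group is titled Foxp3RFP, the Foxp3-deficient group Foxp3∆EGFPiCre, and the third group, called Foxp3-Rictor-deficient here, Foxp3∆EGFPiCreRictor∆/∆, which lacks Rictor as well as Foxp3. Rictor is the scaffold subunit that defines mTOR complex 2. Of the host females, one kind is named Foxp3∆EGFPiCre/RFPR26YFP. The other kind is named Foxp3∆EGFPiCre/+Rictor∆/∆R26YFP. Such females carry 1 working and 1 disrupted copy of the X-linked Foxp3 gene, so the mutant cells were taken from hosts that also hold cells with working Foxp3. Cre is made from the Foxp3 locus and R26YFP is a reporter of Cre activity. Of the host names, only the first holds RFP, as the WT title does, and only the other holds Rictor∆/∆, as the third group's title does. In comparisons with the Foxp3-Rictor-deficient group, the kind of host thus cannot be told apart from genotype. Between WT and the mutant groups, the reporter sorted for (RFP or YFP) cannot be told apart from genotype either. The labels do not state the host of each library, nor that each library came from a separate mouse. The p-values below therefore measure the spread between libraries, which may be partly technical.

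CD28 on a T cell binds CD80 and CD86 on antigen-presenting cells and adds the costimulatory signal that accompanies the T cell receptor; ICOS, its close relative, binds ICOS ligand. CTLA-4 competes with CD28 for the same ligands and is held at high levels by Treg cells, which use it to strip those ligands from other cells. PD-1 (encoded by Pdcd1), BTLA, LAG-3, TIM-3 (Havcr2), TIGIT and CD160 are receptors that in most settings restrain T cells, and CD200 is a membrane ligand for the inhibitory receptor CD200R.

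The loci of 3 of these genes lie in a row on chromosome 1. In GRCm38, by the GENCODE annotation, Cd28 spans chromosome 1 from 60716800 to 60773359, Ctla4 from 60887000 to 60915832 and Icos from 60977927 to 61000320, each on the plus strand. Pdcd1 lies further along the same chromosome, from 94038305 to 94052553 on the minus strand. Tigit (43648867 to 43664146), Btla (45224315 to 45257670) and Cd200 (45382135 to 45409053) share chromosome 16. Lag3 is on chromosome 6, Havcr2 on chromosome 11 and Cd160 on chromosome 3. Each is a protein-coding gene, and 68 bp of Cd160 exon (2.57%) overlap an exon of Pdzk1 on the opposite strand. The counts cannot assign reads there to a strand, since the strand setting of the counting is not given in the sources used here.

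Promoter sequence is shown for Ctla4 and Pdcd1, the inhibitory receptors with the most reads per kb in WT cells. Each line holds the 250 bases before the RefSeq start site (GRCm38.p6), for Ctla4 chr1:60908775-60909024 on the plus strand and for Pdcd1 chr1:94052554-94052803 on the minus strand, written 5′ to 3′. Capitals mark the core GGAAA bound by NFAT factors, or its reverse complement TTTCC.
Ctla4: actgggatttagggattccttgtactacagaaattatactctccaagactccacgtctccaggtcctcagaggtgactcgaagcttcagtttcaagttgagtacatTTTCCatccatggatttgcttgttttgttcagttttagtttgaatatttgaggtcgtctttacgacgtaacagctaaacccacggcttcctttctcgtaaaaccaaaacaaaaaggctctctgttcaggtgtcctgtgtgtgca
Pdcd1: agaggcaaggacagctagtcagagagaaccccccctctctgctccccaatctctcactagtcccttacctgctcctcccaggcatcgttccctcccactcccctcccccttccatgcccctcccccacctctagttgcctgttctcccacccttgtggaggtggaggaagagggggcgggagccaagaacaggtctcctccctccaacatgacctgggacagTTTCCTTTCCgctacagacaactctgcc
The NFAT core stands at 1 place before Ctla4 and at 2 adjoining places before Pdcd1. These letters are common, since 55.6% of 32851 mouse promoter windows of this length hold them on 1 strand or the other. A forkhead motif (GTAAACA, in 3.2% of windows) and an AP-1 motif (TGANTCA, in 6.7%), neither of which overlaps the NFAT core, were searched on both strands and were not found in either window.

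The libraries held 15769737 to 26114044 reads in genes. Levels are given as CPM, a gene's reads scaled to the size of its library with TMM factors. Foxp3 had 556 to 705 CPM in WT, 87.9 to 142 in the Foxp3-deficient and 91.8 to 122 in the Foxp3-Rictor-deficient libraries. Rictor had 133 to 168, 163 to 229 and 130.1 to 157 CPM, so the Foxp3-Rictor-deficient libraries lay below the Foxp3-deficient but overlapped WT. The counts are sums over each whole gene, which cannot show the loss of single exons. The 9 T cell markers summed to 7866 to 10162 CPM over the 12 libraries and differed among themselves. Cd4 had means of 757, 1079 and 867 CPM in the 3 groups, Cd3d 400, 344 and 548, and Trbc2 897, 842 and 1285. Of the 9 tested, 2 were called higher and 1 lower on loss of Foxp3. With added Rictor loss 5 were higher and 3 lower. Against WT in Foxp3-Rictor-deficient cells 3 were higher and 0 lower. The 8 Treg markers summed to 2471 to 2870 CPM in WT, 750.2 to 927 in Foxp3-deficient and 1107 to 1275 in Foxp3-Rictor-deficient cells. Foxp3-deficient libraries 1 and 3 stood apart from the others on principal components, and values without both of them, an alternative chosen after seeing the data, are given where a call or a size changes. The Foxp3-Rictor-deficient libraries had fewer reads outside genes (4.63% to 5.47%, against 6.22% to 9.27% in the others) and more reads that mapped to several places (31.1% to 33.1%, against 23.0% to 29.5%), a difference that cannot be told apart from genotype.

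Per kb of exon, which lets genes of unlike length be compared, the 10 receptors covered more than 2 orders of magnitude. The length counts every annotated exon of a gene, whether or not these cells use it. The order depends on this length, since in plain CPM the WT mean of Cd28 (395) was above that of Ctla4 (349). In WT cells the mean level was 149.8 CPM per kb for Ctla4, 119 for Pdcd1, 64.6 for Cd28, 56.7 for Icos, 42.0 for Tigit, 37.1 for Btla, 36.8 for Cd200, 7.49 for Cd160, 1.81 for Lag3 and 0.955 for Havcr2. Among neighbours in this order, the 4 libraries did not overlap between Pdcd1 and Cd28, between Cd200 and Cd160, or between Cd160 and Lag3, and the other 6 neighbouring pairs overlapped. In Foxp3-deficient cells Cd28 (77.2 CPM per kb) took the second place after Ctla4 (105), although neighbouring genes overlapped down to Cd200 (31.1), and Tigit (9.88) lay below Cd200 with no overlap. In Foxp3-Rictor-deficient cells Ctla4 (149 CPM per kb) stood above Cd28 (54.5) with no overlap, and Lag3 (4.49) moved past Cd160 (3.35), although those 2 overlapped.

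**Figure D1:**
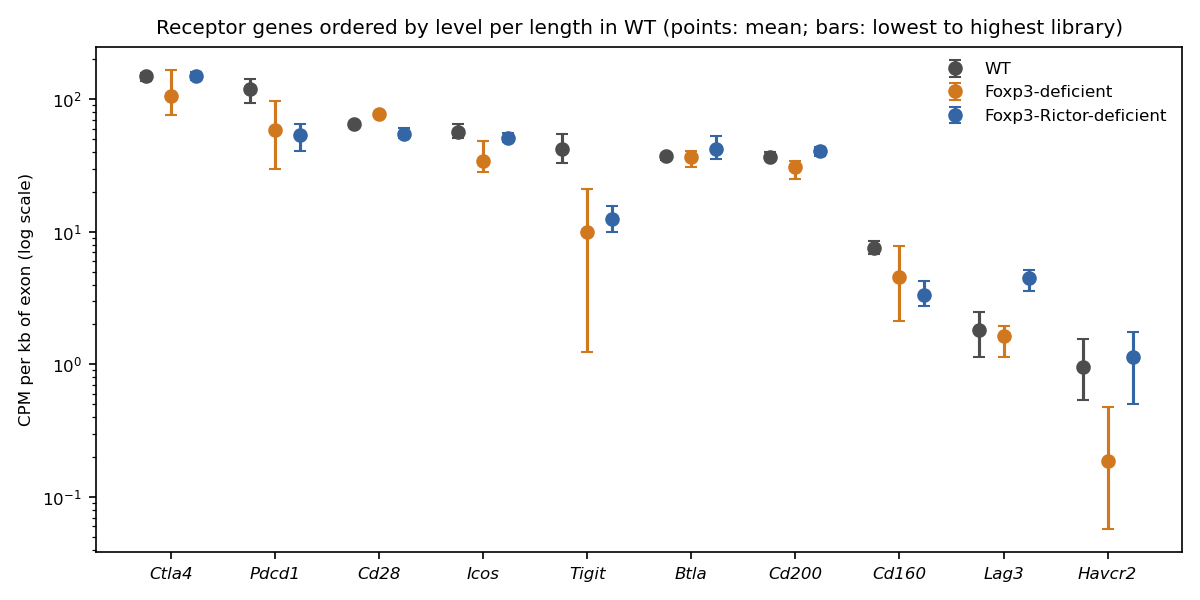
Mean level of the 10 receptor genes in CPM per kb of exon (log scale) in WT, Foxp3-deficient and Foxp3-Rictor-deficient cells, with bars from the lowest to the highest of 4 libraries. Ctla4 is at 149.8 and 149 CPM per kb in WT and Foxp3-Rictor-deficient cells, and Tigit spreads from 1.24 to 20.9 in Foxp3-deficient cells.

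Loss of Foxp3 was compared with WT first. Of the 10 receptors, 5 changed: Cd28 rose and Icos, Pdcd1, Havcr2 and Tigit fell. Among all tested genes 13.7% changed (6.99% higher and 6.74% lower, edgeR quasi-likelihood test, adjusted p under 0.05). The median log2 fold change of the 10 was −0.61, beside 0.00 for all tested genes. The groups did not overlap for 5 receptors (Cd28, Icos, Havcr2, Tigit and Cd200), which 17.8% of all tested genes share. The count of 5 fell to 3 without WT library 3, to 2 without WT library 4 or 5 and to 3 without Foxp3-deficient library 4. Of all tested genes 923 rose and 889 fell, a split that became 1353 and 855 when a trend with gene length and GC content was removed.

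Added loss of Rictor was compared with loss of Foxp3 alone. Again 5 receptors changed, with Icos, Lag3, Havcr2 and Cd200 higher and Cd28 lower in Foxp3-Rictor-deficient cells. The share of all tested genes that changed was 27.2% (13.9% higher, 13.3% lower). The receptors' median log2 difference was 0.35, beside −0.02 for all tested genes. The groups did not overlap for 4 receptors (Cd28, Lag3, Havcr2 and Cd200), against 25.0% of tested genes.

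Foxp3-Rictor-deficient cells were then compared with WT. Lag3 was higher and Cd28, Pdcd1, Tigit and Cd160 were lower, 5 of the 10, against 32.6% of all tested genes (15.8% higher, 16.8% lower). The receptors' median was −0.08 on the log2 scale, beside −0.03 for all tested genes. For these 5 the groups did not overlap, as for 39.7% of tested genes. Without Foxp3-Rictor-deficient library 4 the count was 3. Over all tested genes 2084 rose and 2215 fell, or 2538 and 1679 with the length and GC trend removed. The 3 comparisons share libraries, so none of them is independent of the others.

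**Figure D2:**
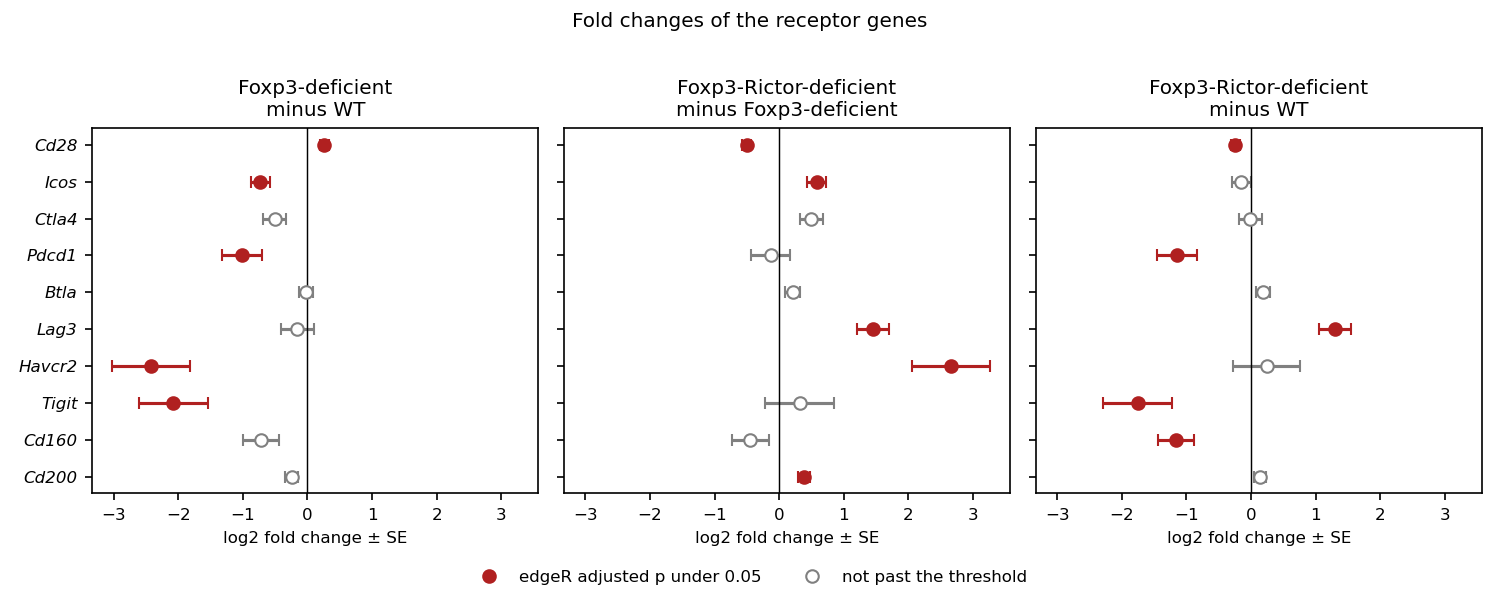
Log2 fold change with standard error of the 10 receptor genes in the 3 comparisons (4 libraries a group), filled where edgeR's adjusted p is under 0.05. Havcr2 and Tigit move by more than 2 log2 units on loss of Foxp3, and Cd28 changes direction between the first 2 panels.

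Among the costimulatory receptors, Cd28 was at 402, 387, 403 and 389 CPM in the WT libraries (replicates 1, 3, 4 and 5), at 452, 484, 467 and 489 CPM in the Foxp3-deficient libraries (1, 3, 4 and 5) and at 337, 368, 315 and 314 CPM in the Foxp3-Rictor-deficient libraries (2, 3, 4 and 5). The 3 groups did not overlap: each Foxp3-deficient library lay above WT and each Foxp3-Rictor-deficient library below it. Cd28 rose by 0.26 on the log2 scale (SE 0.07, adjusted p = 0.0195) on loss of Foxp3. It was 1.42-fold lower in Foxp3-Rictor-deficient than in Foxp3-deficient cells (log2 −0.50, SE 0.07, adjusted p = 0.00027) and lower than in WT (−0.25, SE 0.07, adjusted p = 0.0143). The rise over WT missed the threshold without WT library 3 (0.24, adjusted p = 0.0657), without WT library 5 (0.25, adjusted p = 0.0557) and with no filter on low counts (adjusted p = 0.0584). The fall below WT missed it without Foxp3-Rictor-deficient library 4 (−0.21, adjusted p = 0.0515) and with no filter (adjusted p = 0.0657).

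Icos, the inducible costimulator, was at 174, 177, 203 and 223 CPM in WT, at 97.5, 98.0, 109 and 165 CPM in Foxp3-deficient and at 174, 176, 162 and 189.6 CPM in Foxp3-Rictor-deficient libraries. Foxp3-deficient libraries 1, 3 and 4 lay close together, and library 5 was higher, above 1 Foxp3-Rictor-deficient library and below each WT library. Icos fell 1.66-fold on loss of Foxp3 (log2 −0.73, SE 0.14, adjusted p = 0.00252) and was 1.49-fold higher in Foxp3-Rictor-deficient than in Foxp3-deficient cells (0.58, SE 0.14, adjusted p = 0.0100). Between Foxp3-Rictor-deficient and WT cells the difference was −0.15 (SE 0.14, adjusted p = 0.45). Without Foxp3-deficient libraries 1 and 3 together the rise with added Rictor loss missed the threshold (0.36, adjusted p = 0.0883).

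Ctla4, which encodes the receptor through which Treg cells remove CD80 and CD86, was at 319, 367, 343 and 368 CPM in WT and at 203, 387, 178 and 214 CPM in Foxp3-deficient libraries. It was at 326, 348, 338 and 376 CPM in Foxp3-Rictor-deficient libraries. Foxp3-deficient library 3 was above every WT library, and the other 3 were below every WT library. With all libraries the log2 difference was −0.51 (SE 0.18, adjusted p = 0.0857) between Foxp3-deficient and WT cells and 0.50 (SE 0.18, adjusted p = 0.0564) between Foxp3-Rictor-deficient and Foxp3-deficient cells, and neither passed. Without Foxp3-deficient library 3 both passed, at −0.81 (adjusted p = 1.18e-05) and 0.81 (adjusted p = 3.19e-05), as they did without libraries 1 and 3 (−0.83, adjusted p = 3.73e-05, and 0.82, adjusted p = 0.000107). DESeq2 (adjusted p = 0.0483 and 0.0291) and limma-voom (adjusted p = 0.0321 and 0.0223) also called both with all libraries. In edgeR neither passed without any 1 library other than Foxp3-deficient library 3 (adjusted p up to 0.193 and 0.158). Without Foxp3-deficient library 4 the differences were −0.38 and 0.37. Neither passed with no low-count filter or with only the 2 groups in the fit. With the length and GC trend removed the differences were −0.38 and 0.30, and neither passed. Foxp3-Rictor-deficient and WT cells differed by −0.01 (SE 0.18, adjusted p = 0.976).

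**Figure D3:**
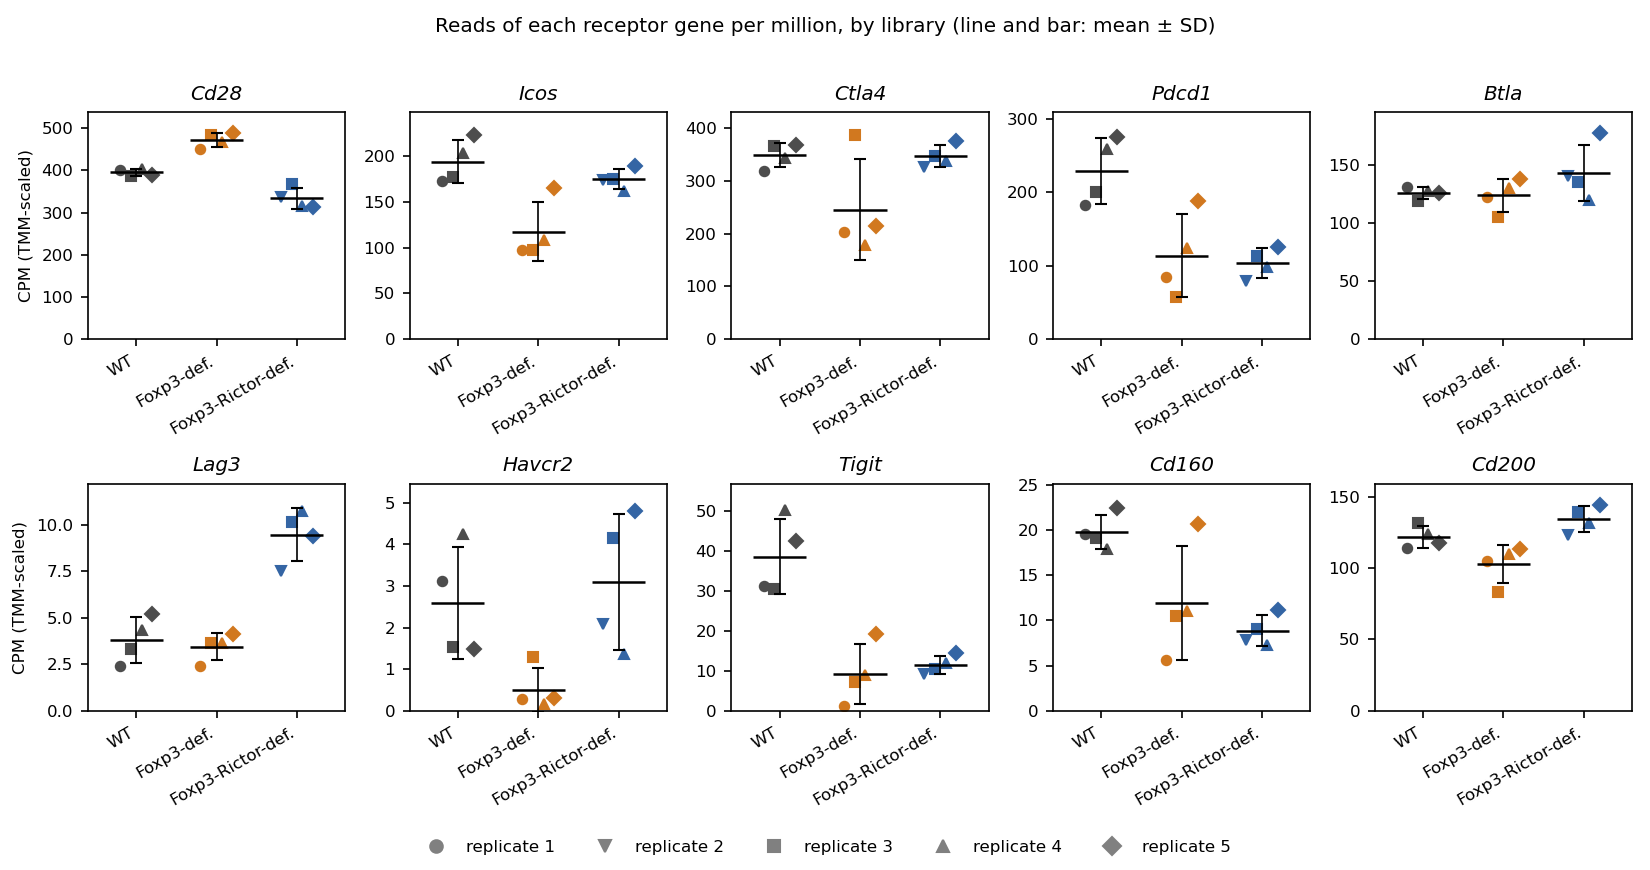
CPM of each receptor gene in each library, with the replicate number as the symbol and a line and bar for the mean ± SD of 4 libraries. Cd28 forms 3 separate groups, Ctla4 in Foxp3-deficient library 3 (387 CPM) stands above its group, and Lag3 is at 7.53 to 10.8 CPM in Foxp3-Rictor-deficient cells against 2.38 to 5.22 in the others.

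Pdcd1, the gene of PD-1, was at 182, 201, 259 and 275 CPM in WT, at 84.2, 57.8, 124 and 188 CPM in Foxp3-deficient and at 79.0, 112, 97.8 and 126 CPM in Foxp3-Rictor-deficient libraries. Both mutant groups were low, and Foxp3-deficient library 5 was the one mutant library to reach the WT range. The gene fell 2.02-fold on loss of Foxp3 (log2 −1.01, SE 0.31, adjusted p = 0.0494) and was 2.21-fold lower than WT in Foxp3-Rictor-deficient cells (−1.15, SE 0.31, adjusted p = 0.0155). The first call lies at the threshold: it was lost without any 1 of WT libraries 1, 3, 4 and 5 and Foxp3-deficient libraries 1, 3 and 4 (−1.12 to −0.80, adjusted p = 0.0519 to 0.124), with no low-count filter (adjusted p = 0.146), with only the 2 groups in the fit (adjusted p = 0.10) and with the length and GC trend removed (adjusted p = 0.0691). Without Foxp3-deficient libraries 1 and 3 the fall was 1.47-fold and was not called (−0.56, adjusted p = 0.142). The call in Foxp3-Rictor-deficient cells was lost with no low-count filter (adjusted p = 0.055). Between the mutant groups the difference was −0.13 (SE 0.31, adjusted p = 0.776).

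Tigit, whose product competes with the activating receptor CD226 for the poliovirus receptor PVR, was at 31.3, 30.5, 50.2 and 42.5 CPM in WT, at 1.14, 7.06, 8.94 and 19.2 CPM in Foxp3-deficient and at 9.11, 10.5, 11.9 and 14.5 CPM in Foxp3-Rictor-deficient libraries. No mutant library reached the WT range, and the Foxp3-deficient libraries spread far more widely than the Foxp3-Rictor-deficient ones, from 21 to 443 reads. Tigit fell 4.21-fold on loss of Foxp3 (log2 −2.07, SE 0.54, adjusted p = 0.0246) and was 3.37-fold lower than WT in Foxp3-Rictor-deficient cells (−1.75, SE 0.53, adjusted p = 0.0264). The first call was lost without WT library 4 or 5 or Foxp3-deficient library 3 or 4 (−2.06 to −1.92, adjusted p = 0.0585 to 0.0664), with no low-count filter (adjusted p = 0.0815) and with only the 2 groups in the fit (adjusted p = 0.0858); without Foxp3-deficient library 5 the fall was 6.80-fold, and without libraries 1 and 3 it was 2.73-fold (adjusted p = 0.00418). The second was lost without WT library 4 or 5 or Foxp3-Rictor-deficient library 2, 3 or 4 (−1.77 to −1.60, adjusted p = 0.0542 to 0.0687) and with no low-count filter (adjusted p = 0.0804). Between the mutant groups the difference was 0.32 (SE 0.54, adjusted p = 0.683).

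Lag3, whose product binds MHC class II, was at 2.38, 3.32, 4.33 and 5.22 CPM in WT, at 2.38, 3.62, 3.67 and 4.12 CPM in Foxp3-deficient and at 7.53, 10.2, 10.8 and 9.41 CPM in Foxp3-Rictor-deficient libraries. Every Foxp3-Rictor-deficient library was above every library of the other groups, which overlapped each other. Lag3 was 2.74-fold higher than in Foxp3-deficient cells (log2 1.45, SE 0.25, adjusted p = 0.00118) and 2.46-fold higher than in WT (1.30, SE 0.25, adjusted p = 0.00108). Loss of Foxp3 alone gave −0.15 (SE 0.25, adjusted p = 0.762).

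Havcr2, the gene of TIM-3, was close to the lower limit of these libraries. It had 55, 25, 116 and 35 reads in WT (3.12, 1.54, 4.26 and 1.47 CPM), 5, 21, 3 and 7 reads in Foxp3-deficient (0.271, 1.29, 0.155 and 0.303 CPM) and 42, 92, 29 and 88 reads in Foxp3-Rictor-deficient libraries (2.08, 4.15, 1.36 and 4.81 CPM). Each Foxp3-deficient library was below every other library, with library 3 near the edge. Havcr2 fell 5.33-fold on loss of Foxp3 (log2 −2.41, SE 0.60, adjusted p = 0.0131) and was 6.31-fold higher in Foxp3-Rictor-deficient than in Foxp3-deficient cells (2.66, SE 0.60, adjusted p = 0.00628). Without Foxp3-deficient library 3 the changes were 10.4-fold and 12.3-fold, and without libraries 1 and 3 they were 10.9-fold and 12.9-fold. The fall was lost without WT library 4 (−2.05, adjusted p = 0.0528). Foxp3-Rictor-deficient and WT cells differed by 0.24 (SE 0.52, adjusted p = 0.749).

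Natural killer, CD8+ and myeloid cells also express several of these receptors. Markers of natural killer and CD8+ cells (6 of 8 in the table) summed to 56.6 to 70.3 CPM in WT, 45.1 to 148 in Foxp3-deficient and 77.0 to 111 in Foxp3-Rictor-deficient libraries, and differed among themselves. Nkg7 had means of 24.9, 38.0 and 48.9 CPM in the 3 groups, Cd8b1 18.2, 16.9 and 25.7, Klrb1c 3.18, 0.894 and 0.927, and Cd8a 0.192, 0.321 and 0.766. Of the 6 tested, 0 were called on loss of Foxp3, 1 higher and 1 lower with added Rictor loss, and 1 higher against WT. The 8 myeloid markers summed to 2.76 to 4.82 CPM over the 12 libraries. Fcgr3 had means of 0.198, 0.718 and 2.08 CPM, and Cd68 2.28, 1.63 and 1.10, with Csf1r under 1 CPM. Of the 3 tested, 1 was called higher in each comparison and 1 lower against WT in Foxp3-Rictor-deficient cells. The part of such cells in the levels of Lag3, Havcr2 and Cd160 was not tested. In sorted bulk RNA, fewer cells that carry a transcript and less of it per cell cannot be told apart.

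Btla and Cd160 encode receptors for the same ligand, HVEM. Btla was at 119 to 131 CPM in WT, 105 to 138 in Foxp3-deficient and 120.1 to 178 in Foxp3-Rictor-deficient libraries. It passed no test, with log2 differences of −0.02, 0.21 and 0.19 (SE 0.11 each; adjusted p = 0.941, 0.175 and 0.205). Cd160 was at 19.6, 19.1, 18.0 and 22.4 CPM in WT, at 5.63, 10.5, 11.1 and 20.7 CPM in Foxp3-deficient and at 7.87, 9.10, 7.26 and 11.2 CPM in Foxp3-Rictor-deficient libraries. Foxp3-deficient library 5 was within the WT range and the other mutant libraries were below it. Cd160 was 2.24-fold lower than WT in Foxp3-Rictor-deficient cells (log2 −1.16, SE 0.28, adjusted p = 0.00582). For loss of Foxp3 alone the difference was −0.72 (SE 0.28, adjusted p = 0.104), and −1.13 (adjusted p = 0.00241) without Foxp3-deficient library 5; limma-voom called it with all libraries (adjusted p = 0.0451). Between the mutant groups the edgeR difference was −0.44 (SE 0.28, adjusted p = 0.249), and it passed without Foxp3-deficient library 1 (−0.68, adjusted p = 0.0442) or libraries 1 and 3 (−0.85, adjusted p = 0.0155).

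Cd200 was at 115, 132, 124 and 118 CPM in WT, at 105, 83.5, 110.1 and 114 CPM in Foxp3-deficient and at 123, 139.6, 132 and 145 CPM in Foxp3-Rictor-deficient libraries. The Foxp3-deficient libraries lay just below both other groups, which overlapped. The fall on loss of Foxp3 did not pass (log2 −0.24, SE 0.10, adjusted p = 0.114). Cd200 was 1.31-fold higher in Foxp3-Rictor-deficient than in Foxp3-deficient cells (0.39, SE 0.10, adjusted p = 0.00997), a call that was lost when the length and GC trend was removed (0.25, adjusted p = 0.0582). Against WT the difference was 0.14 (SE 0.10, adjusted p = 0.267).

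Ratios of 2 receptors within a library do not depend on library scaling and are given as a description. Cd28, by which Ctla4, Icos and Pdcd1 are divided, itself differed between the groups (means of 395, 473 and 333 CPM), so these ratios also move with Cd28. The ratio of Ctla4 to Cd28 in reads per kb of exon was 2.32 ± 0.200 (SD, n = 4) in WT and 1.36 ± 0.501 in Foxp3-deficient cells, where library 3 had 2.10 and the highest of the others 1.18. It was 2.75 ± 0.302 in Foxp3-Rictor-deficient cells. Icos to Cd28 was 0.878 ± 0.112 in WT, 0.441 ± 0.110 in Foxp3-deficient and 0.944 ± 0.0957 in Foxp3-Rictor-deficient cells. The highest Foxp3-deficient library (0.603) was below the lowest of the others (0.770). Pdcd1 to Cd28 was 1.84 ± 0.367, 0.757 ± 0.360 and 0.992 ± 0.216, and no mutant library reached the WT range of 1.44 to 2.25. In CPM, Pdcd1 in Foxp3-deficient library 5 (188) was within the WT range. Tigit to Cd226, the inhibitory and the activating receptor for PVR, was 2.95 ± 1.03, 0.489 ± 0.348 and 0.550 ± 0.0813. In each WT library Tigit was above Cd226 per kb, and in each mutant library it was below. This crossing depends on the exon lengths. In plain reads Tigit was below Cd226 in every library, at a ratio of 0.408 to 0.839 in WT and at most 0.165 in the mutants.

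**Figure D4:**
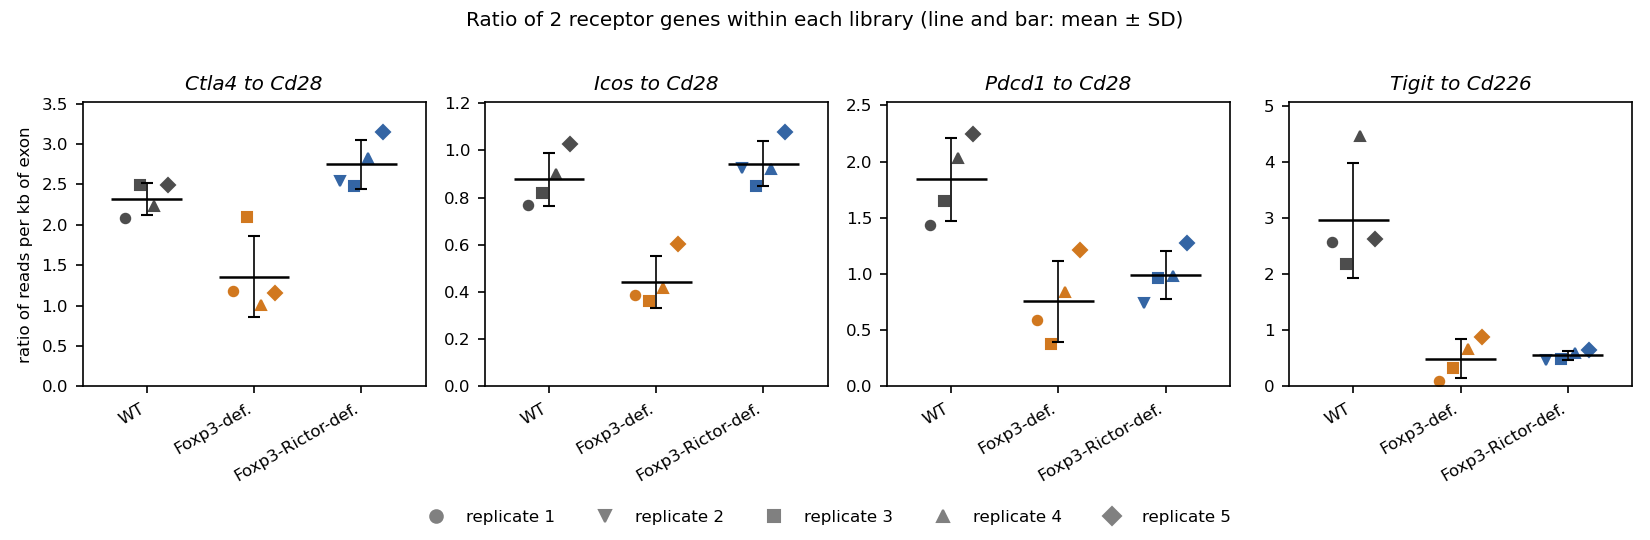
Ratio of reads per kb of exon between 2 receptor genes in each library, with a line and bar for the mean ± SD of 4 libraries and the replicate number as the symbol. Icos to Cd28 is lower in the 4 Foxp3-deficient libraries than in the other 8, and Tigit to Cd226 is below 1 in the 8 mutant libraries.

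The genes around the receptors were taken from 4 lists: ligands, other coreceptors, signalling and trafficking partners, and transcription regulators. Where more than 4 genes of a list changed, the 4 with the smallest adjusted p were to be named. Each list's count is to be read against the share of all tested genes that changed, which was 13.7% on loss of Foxp3, 27.2% with added Rictor loss and 32.6% against WT in Foxp3-Rictor-deficient cells. Other genes were added after their values were seen. On loss of Foxp3 these were Cd80, Pdcd1lg2, Tnfrsf14, Lair1, Cd96, Sh2d1a and Maf. With added Rictor loss they were Malt1, Lck, Pik3cd, Sh2d1a, Dok1, Dok2, Prdm1, Irf4, Batf, Nfatc1 and Eomes. Against WT in Foxp3-Rictor-deficient cells they were Tnfrsf14, Pvr, Pvrl2, Cd101, Inpp5d, Ptpn11 and Tox2.

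Transcripts of the receptors' binding partners, listed as ligands, were mostly lower in the mutant cells. The ligand list counts Cd200r1, although CD200 is the ligand of that pair. Of the 13 ligand genes, 10 were tested; on loss of Foxp3 1 rose and 6 fell (median log2 fold change −1.13). Cd200r1, the receptor for CD200, was at 52.6 ± 5.11 CPM in WT and 21.6 ± 2.63 in Foxp3-deficient cells (−1.28, adjusted p = 2.97e-05). Cd274, the gene of the PD-1 ligand PD-L1, went from 107 ± 9.04 to 71.1 ± 7.47 CPM (−0.59, adjusted p = 0.00026). Cd86 went from 53.0 ± 4.21 to 26.8 ± 6.14 CPM (−0.98, adjusted p = 0.000323) and Icosl from 11.5 ± 1.06 to 3.61 ± 1.06 CPM (−1.67, adjusted p = 0.000459). Cd80 (2.79 to 0.380 CPM, adjusted p = 0.00138) and Pdcd1lg2, the gene of PD-L2 (10.4 to 3.03 CPM, adjusted p = 0.000615), also fell.

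The ligand gene that rose was Tnfrsf14, which encodes HVEM, the partner of BTLA and CD160. It was at 3.03 ± 0.572 CPM in WT, 18.8 ± 16.9 in Foxp3-deficient and 34.2 ± 14.8 in Foxp3-Rictor-deficient cells. Foxp3-deficient libraries ran from 3.25 to 36.2 CPM and overlapped WT, whereas Foxp3-Rictor-deficient libraries, from 12.3 to 43.4 CPM, did not. It was 11.2-fold higher than WT in Foxp3-Rictor-deficient cells (log2 3.49, SE 0.77, adjusted p = 0.0068). The rise on loss of Foxp3 (2.63, SE 0.76, adjusted p = 0.044) was lost without WT library 1, 3, 4 or 5 or Foxp3-deficient library 4 or 5 (2.11 to 2.75, adjusted p = 0.087 to 0.118). Without Foxp3-deficient libraries 1 and 3 it was 10.9-fold (adjusted p = 0.000246).

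In Foxp3-Rictor-deficient cells 1 ligand gene was higher than in Foxp3-deficient cells and 1 lower (median 0.27): Cd80 (0.380 to 1.61 CPM, log2 2.08, adjusted p = 0.0114) and Pvr, the ligand of TIGIT and CD226 (64.8 to 42.3 CPM, −0.62, adjusted p = 0.00415). Cd80 was near the lower limit and overlapped, at 0.217 to 0.541 CPM in Foxp3-deficient and 0.383 to 3.20 CPM in Foxp3-Rictor-deficient libraries. Against WT 1 was higher and 7 lower (median −0.76). Cd274 (−0.59, adjusted p = 0.000198), Cd200r1 (−0.98, adjusted p = 0.000256), Cd86 (−0.74, adjusted p = 0.00208) and Pdcd1lg2 (−1.20, adjusted p = 0.00582) led the 7. Pvr (−0.39, adjusted p = 0.0303) lost its call without WT library 3 or 5 or Foxp3-Rictor-deficient library 3, 4 or 5 (adjusted p = 0.0738 to 0.11). Pvrl2, which encodes nectin-2, another ligand of CD226 and TIGIT, was at 1.62 CPM in WT and 0.261 in Foxp3-Rictor-deficient cells (adjusted p = 0.00721).

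Several of these ligand genes are typical of B cells and dendritic cells. The 8 B cell markers summed to 1275 to 1507 CPM in WT, 677 to 844 in Foxp3-deficient and 776 to 948 in Foxp3-Rictor-deficient libraries, nearly all of it Ighm (mean 1368, 733 and 852 CPM). Of 6 tested, 4 fell and 0 rose on loss of Foxp3, the direction of most ligand genes, 2 were higher and 1 lower with added Rictor loss, and 5 were lower and 0 higher against WT in Foxp3-Rictor-deficient cells. Cd79b had means of 21.3, 8.49 and 15.8 CPM, Cd22 12.8, 8.75 and 1.90, and Ighd 6.54, 0.855 and 3.11. Ms4a1, which encodes the B cell surface protein CD20, was at or near 0 (0.0408, 0 and 0.386). Dendritic cell markers (7 of 8 in the table) summed to 2.15 to 8.08 CPM. Zbtb46, which made up most of the sum in WT, had means of 5.37, 2.19 and 3.31 CPM, Xcr1 0.875, 1.38 and 1.72, and Itgax 0, 0.0869 and 0.145; of 2 tested, 0 were called in each comparison. The part of such cells in the ligand levels was not tested.

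Of 10 other coreceptors, 2 rose and 4 fell on loss of Foxp3 (median 0.18). Tnfrsf9, the gene of the costimulatory TNF receptor 4-1BB, was at 357 ± 27.2 CPM in WT and 90.1 ± 13.3 in Foxp3-deficient cells (−1.99, SE 0.10, adjusted p = 4.54e-09). Cd27 (494 to 324 CPM, adjusted p = 2e-05), Cd101 (51.2 to 29.2 CPM, adjusted p = 0.000174) and Cd96 (380.0 to 312 CPM, adjusted p = 0.0133) also fell. Cd6 (1112 to 1531 CPM, adjusted p = 0.00103) and the collagen receptor gene Lair1 (4.05 to 9.77 CPM, adjusted p = 0.00143) rose. With added Rictor loss Cd6 (to 1107 CPM, adjusted p = 0.00139) and Lair1 (to 5.10 CPM, adjusted p = 0.00997) were lower than in Foxp3-deficient cells and Cd101 was higher (to 38.5 CPM, adjusted p = 0.0226), 1 higher and 2 lower in all (median −0.12), a share close to the 27.2% of all tested genes. The Cd101 call was lost without Foxp3-Rictor-deficient library 3 or 5 (adjusted p = 0.053 and 0.0577) or Foxp3-deficient libraries 1 and 3 (adjusted p = 0.0589), and the count was 1 higher and 4 lower without Foxp3-deficient library 3. Against WT, Foxp3-Rictor-deficient cells had 1 higher and 4 lower (median 0.03). Tnfrsf9 (−2.20, adjusted p = 8.15e-10), Cd27 (−0.62, adjusted p = 1.32e-05), Cd96 (−0.38, adjusted p = 0.00112) and Cd101 (−0.41, adjusted p = 0.0147) were lower and Cd226 higher (71.5 to 110.4 CPM, 0.63, adjusted p = 0.0144; 0.55 and adjusted p = 0.0509 without WT library 4).

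Among 23 signalling and trafficking partners, which include kinases of the T cell receptor, SH2 phosphatases and proteins that recycle CTLA-4, 7 rose and 1 fell on loss of Foxp3 (median 0.12). Malt1 (136 to 205 CPM, log2 0.60, adjusted p = 0.000199), Lck (1833 to 2314 CPM, 0.34, adjusted p = 0.00182) and the PI3K subunit gene Pik3cd (839.9 to 1135 CPM, 0.43, adjusted p = 0.00359) were among those that rose. The gene that fell was Sh2d1a, which encodes the adaptor SAP (94.6 to 53.1 CPM, −0.83, adjusted p = 0.00571). With added Rictor loss 4 were higher and 9 lower than in Foxp3-deficient cells (median −0.19). Lrba, whose product protects CTLA-4 from degradation in lysosomes, was at 28.0 ± 4.60 CPM in Foxp3-deficient and 13.7 ± 2.04 CPM in Foxp3-Rictor-deficient cells (−1.03, SE 0.15, adjusted p = 0.000439), and at 29.3 ± 4.20 CPM in WT. Malt1 (205 to 158 CPM, −0.38, adjusted p = 0.00739) and Lck (2314 to 1939 CPM, −0.26, adjusted p = 0.0105), which rose on loss of Foxp3, were also among the 9 lower. Pik3cd was not called (0.13, adjusted p = 0.281). Rab11a, a recycling endosome GTPase, was higher (74.4 to 107 CPM, 0.53, adjusted p = 0.00308), as was Sh2d1a (53.1 to 95.1 CPM, 0.84, adjusted p = 0.00528).

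Dok1 (adjusted p = 0.0323) and Dok2 (adjusted p = 0.0352) completed the 4 that were higher. Dok1 lost its call without Foxp3-deficient library 1 or 4 or Foxp3-Rictor-deficient library 4 or 5 (adjusted p = 0.0671 to 0.096) or Foxp3-deficient libraries 1 and 3 (adjusted p = 0.119), and Dok2 without Foxp3-deficient library 1 or 4 or Foxp3-Rictor-deficient library 3, 4 or 5 (adjusted p = 0.054 to 0.107). Against WT 3 partners were higher and 4 lower in Foxp3-Rictor-deficient cells (median 0.07), a share of the 23 close to the 32.6% of all tested genes; without Foxp3-deficient libraries 1 and 3 they were 6 and 5. Those with the smallest adjusted p were Lrba (−1.10, adjusted p = 8.57e-05), Pik3cd (0.57, adjusted p = 0.000292), Pik3r1 (−0.56, adjusted p = 0.00153) and Dok2 (0.31, adjusted p = 0.00737). Also lower were Inpp5d (−0.27, adjusted p = 0.0146) and Ptpn11 (−0.43, adjusted p = 0.0245). Inpp5d lost its call without Foxp3-Rictor-deficient library 5 (adjusted p = 0.0578), and Ptpn11 without WT library 3 or 5 or Foxp3-Rictor-deficient library 3 or 5 (adjusted p = 0.0524 to 0.0857).

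Of 13 transcription regulators of these receptors, 1 rose and 4 fell on loss of Foxp3 (median 0.07). Tox (187 to 116 CPM, log2 −0.69, adjusted p = 0.000174), a factor that sustains inhibitory receptors in exhausted T cells, and Prdm1, the gene of Blimp-1 (45.6 to 23.6 CPM, −0.95, adjusted p = 0.000714), fell. Irf4 (−0.47, adjusted p = 0.0431), Batf (−0.71, adjusted p = 0.0434) and Maf (0.37, adjusted p = 0.0474), which rose, were near the threshold. Irf4 lost its call without WT library 1, 3, 4 or 5 or Foxp3-deficient library 4 (adjusted p = 0.0657 to 0.128), Batf without these or Foxp3-deficient library 3 (adjusted p = 0.0594 to 0.112) or libraries 1 and 3 (adjusted p = 0.0534), and Maf without WT library 1, 3 or 5 or Foxp3-deficient library 4 or 5 (adjusted p = 0.0545 to 0.16). The count of 5 was 2 to 3 without 1 of the WT libraries or without Foxp3-deficient library 4.

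With added Rictor loss 4 regulators were higher and 5 lower than in Foxp3-deficient cells (median −0.22). Bcl6, the follicular T cell repressor, was at 47.8 ± 10.6 CPM in Foxp3-deficient and 14.5 ± 0.859 in Foxp3-Rictor-deficient cells (log2 −1.72, SE 0.14, adjusted p = 2.69e-06). Foxo1 (706 to 378 CPM, −0.90, adjusted p = 0.000152), Nfatc2 (173 to 103 CPM, −0.75, adjusted p = 2e-04), Nfatc1 (−0.33, adjusted p = 0.0287) and Eomes (−0.73, adjusted p = 0.0381) were the others that were lower. Foxo3 (12.3 to 34.3 CPM, 1.48, adjusted p = 0.00124), Prdm1 (to 40.8 CPM, 0.79, adjusted p = 0.00359), Irf4 (0.56, adjusted p = 0.0132) and Batf (0.67, adjusted p = 0.0346) were higher. Prdm1 is also 1 of 5 plasma cell markers, of which 4 were tested, with 3 called higher and 0 lower. Among the others, mean Jchain went from 0.902 to 11.6 CPM and Xbp1 from 175 to 184 CPM. The part of plasma cells in the level of Prdm1 was not tested. Nfatc1 lost its call without Foxp3-deficient library 1, 4 or 5 or any Foxp3-Rictor-deficient library (adjusted p = 0.0541 to 0.0849), Eomes without Foxp3-deficient library 1, 4 or 5 or Foxp3-Rictor-deficient library 3, 4 or 5 (adjusted p = 0.0547 to 0.109), and Batf without Foxp3-deficient library 4 or Foxp3-Rictor-deficient library 3, 4 or 5 (adjusted p = 0.0557 to 0.0823). Without Foxp3-deficient libraries 1 and 3 Batf (adjusted p = 0.0526) and Eomes (adjusted p = 0.103) were not called.

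Against WT 1 regulator was higher and 6 lower in Foxp3-Rictor-deficient cells (median −0.16). Bcl6 (−1.59, adjusted p = 1.13e-06), Tox (−0.71, adjusted p = 0.000101), Nfatc2 (−0.67, adjusted p = 0.000179) and Foxo3 (1.55, adjusted p = 0.000386) had the smallest adjusted p. Tox2, also among the 6, was near the threshold (−1.09, edgeR adjusted p = 0.0397). It lost its call without WT library 3, 4 or 5 or any Foxp3-Rictor-deficient library (adjusted p = 0.0527 to 0.0954).

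**Figure D5:**
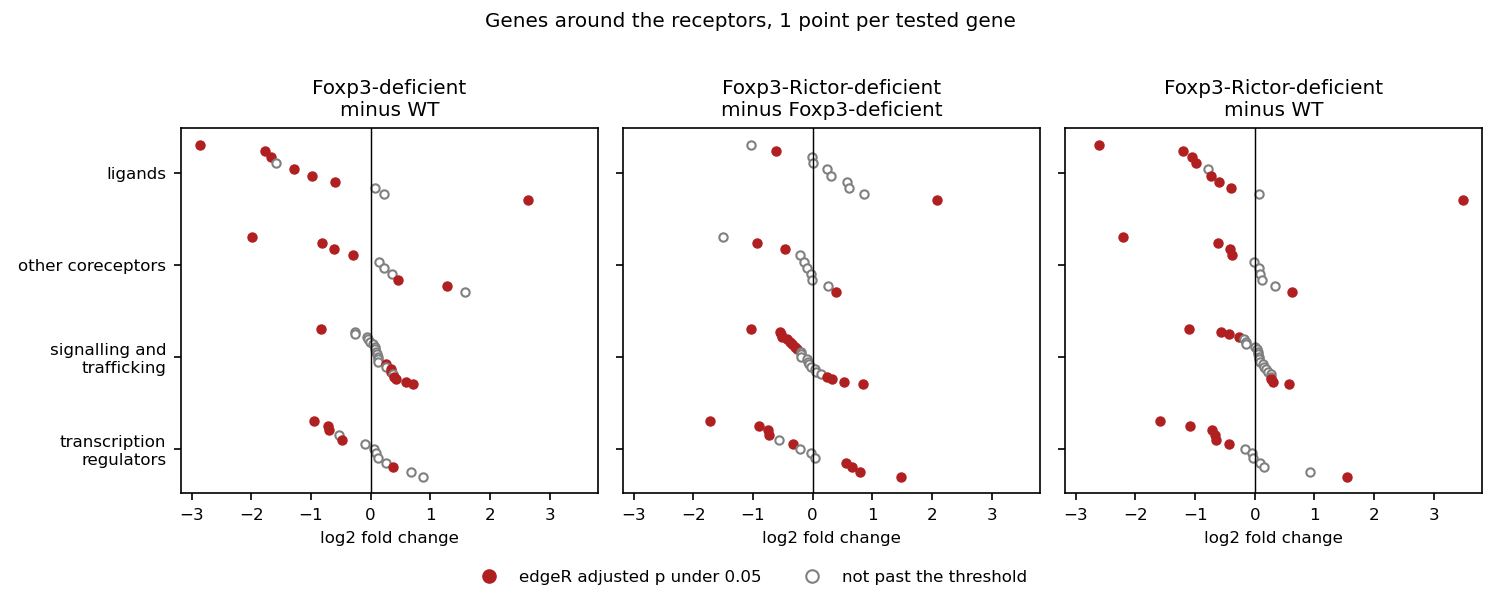
Log2 fold change of each tested gene of the 4 surrounding lists in the 3 comparisons, filled where edgeR's adjusted p is under 0.05. On loss of Foxp3, 6 ligand genes are lower and 1 is higher, and 7 signalling and trafficking partners are higher and 1 is lower.

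Likeness to 4 receptors over the 12 libraries was taken as the root mean square difference (RMS) of log2 CPM. Each gene was centred on its own mean, and the 3 closest named genes are given for each receptor. For Icos they were Samsn1 (RMS 0.12, group means 203, 115 and 187 CPM), Serinc3 (0.15) and Icam1 (0.16), beside a standard deviation of 0.39 for Icos itself. For Ctla4 they were Ccdc28a (0.13), Mgst2 (0.15) and Rps27a (0.16), beside 0.37 for Ctla4. For Cd200 they were Lcmt1 (0.10), Metap2 (0.11) and Arl6ip1 (0.11), beside 0.20 for Cd200. For Tigit the nearest were further away: Ier5l (RMS 0.35, group means 17.7, 5.06 and 5.19 CPM), Ptpn5 (0.42) and Cybb (0.49), beside 1.38 for Tigit. These are the closest among the 13196 tested genes after some were left out by name, and they carry no test. Left out were unnamed gene models, pseudogenes, and segments of T cell receptor and antibody genes.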

How the data were processed

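The authors aligned reads with STAR 2.5.1b to mm10 (GRCm38) and deposited HTSeq counts per gene, per the submitters' processing notes. Not given in the sources used here: strand setting, HTSeq version, Gencode release. The series text names the KAPA Hyper Prep kit and the sample protocol the KAPA mRNA-Seq kit, after SMART-Seq v4 amplification. The 3 HTSeq summary rows were left out.

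Counts of 12 libraries (15769737 to 26114044 reads in genes) entered 1 edgeR 4.0.16 quasi-likelihood fit (TMM, filterByExpr, R 4.3.3), with 3 comparisons and Benjamini-Hochberg adjustment over 13196 tested genes at 0.05. The script was tested on simulated data. CPM per kb used the exonic length of GENCODE M21 (matched to 97.6% of symbols). Promoter sequence is from RefSeq; proteins were not used here. Alternatives were other scalings, filters, DESeq2 1.42.0, limma-voom 3.58.1, other designs and left-out libraries.

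The 10 receptors, the 4 surrounding lists and the rule for named genes (the receptors, the targeted genes, and up to 4 changed genes per list and comparison) were chosen with earlier results of these data known. A few genes that the rule names are not reported here.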

Additional observations from a re-analysis of the deposited data

Results flagged for a closer look

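In 30 sets of 4 libraries (10 receptors in 3 groups), 2 held a library whose distance from its nearest neighbour exceeded Dixon's 95% limit; chance gives about 1 in 20. Icos in Foxp3-deficient library 5, at 165 CPM, stood above the other 3 (97.5 to 109 CPM). Havcr2 in Foxp3-deficient library 3, at 1.29 CPM (21 reads), stood above the other 3 (0.155 to 0.303 CPM, 3 to 7 reads).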

How the results depend on the processing

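The number of receptors called on loss of Foxp3 (5) was 2 with no low-count filter, 3 with only the 2 groups in the fit and 2 to 6 with 1 library left out. In Foxp3-Rictor-deficient against Foxp3-deficient cells it was 5 to 6, and against WT (5) it was 2 with no filter and 3 to 5 with 1 library left out. Genes called in Foxp3-Rictor-deficient against Foxp3-deficient cells (3585) were 2382 with only these groups in the fit and 2057 with the length and GC trend removed and the replicate number as a block. With 1 library left out they were 2153 (without Foxp3-Rictor-deficient library 5) to 4430; the other comparisons gave 1332 to 1949 and 3089 to 4055. A block for the replicate number gave 7, 5 and 5 receptors and 1783, 2756 and 3494 genes; with it Ctla4 (−0.56, adjusted p = 0.0363) and Cd160 (−0.84, adjusted p = 0.025) passed on loss of Foxp3. Deviations of WT and Foxp3-deficient libraries with the same number correlated at 0.0289 to 0.203 (3 of 4 pairs over 0.1), and those of unlike number at −0.261 to 0.188. Same-number libraries correlated at −0.0434 to 0.0622 between the mutant groups and at −0.0524 to 0.0429 between Foxp3-Rictor-deficient and WT. Not every pair was over 0.1, so the numbers were not taken as pairs. Whether WT and Foxp3-deficient libraries of the same number came from the same mouse is not stated and was not tested.

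Differences near 0 changed sign. On loss of Foxp3, Btla was 0.073 with the length and GC trend removed, 0.068 with the block as well, −0.080 to 0.053 with 1 library left out and 0.099 without Foxp3-deficient libraries 1 and 3. Lag3 ranged from −0.33 to 0.034 with 1 library left out and was 0.0185 without these 2. Between the mutant groups, with 1 library left out, Pdcd1 ranged from −0.35 to 0.23 and Tigit from −0.048 to 1.01 (−0.30 without Foxp3-deficient libraries 1 and 3). Against WT in Foxp3-Rictor-deficient cells, Ctla4 was 0.0083 with no filter and ranged from −0.056 to 0.022, and Havcr2 from −0.044 to 0.60, with 1 library left out. Among the surrounding genes' calls, counted per gene, comparison and setting, 80 were lost and 560 held with 1 library left out, and 63 were lost and 814 held in the other settings. None of the receptor differences near 0 passed the test under these settings, and the cause was not tested. Depth limits Havcr2, with 3 to 21 reads a library in Foxp3-deficient cells.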
